A study of Homo sapiens with 6 samples.

Results

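The transcripts of 9 genes that encode LSD1, its paralog and the subunits of the CoREST corepressor complex were followed in cells labelled RKO, a human colorectal carcinoma cell line. The genes were KDM1A, KDM1B, RCOR1, RCOR2, RCOR3, HDAC1, HDAC2, PHF21A and HMG20B. They were taken by symbol from the deposited count table, where each symbol matched 1 of 37923 genes, and all 9 passed the expression filter that left 18581 genes for testing. Of the 6 libraries, 3 carry the label ENZ and 3 the label Control. The series design describes ENZ as exposure to compound A3, an LSD1 degrader, with RNA taken at 48 h, and names no vehicle or other treatment for Control. The design calls the libraries of a group biological replicates without saying whether they came from separate cultures, so p-values cover only the variation among them, which may be technical. What the letters ENZ stand for is not given by the labels.

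LSD1, the product of KDM1A, is a flavin-dependent demethylase that removes methyl groups from a lysine on the tail of histone H3 that marks active promoters and enhancers. On nucleosomes it works through CoREST, a scaffold encoded by RCOR1, RCOR2 or RCOR3, which holds LSD1 together with the deacetylases HDAC1 and HDAC2, and the same scaffold shields LSD1 from degradation by the proteasome. PHF21A (BHC80) reads the unmethylated histone tail that LSD1 leaves behind, and HMG20B (BRAF35) carries a DNA-binding HMG box. The complex is best known for keeping neuronal genes silent in other tissues after recruitment by REST. A degrader acts on protein, which was not measured here.

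Library totals were 26756840 to 30025543 counts in ENZ and 26691289 to 28207612 counts in Control. The label was checked against marker lists. Among 9 colon epithelium markers measured, 6 stayed under 1 CPM (counts scaled to library total), including CDX1 and KRT20, both at 0.0374 CPM or less throughout, while VIL1 was over 10 CPM. All 11 prostate luminal markers were at or above 1 CPM and 9 were over 10 CPM; their summed level was 3258 to 3288 CPM in ENZ and 3035 to 3104 CPM in Control, with 5 called higher and 5 lower. Leukocyte markers summed to no more than 1.97 CPM and endothelial markers to no more than 0.221 CPM in any library. The fibroblast list summed to 11.7 to 13.5 CPM in ENZ and 13.0 to 14.9 CPM in Control, most of it COL1A1. The defining colon markers CDX1 and KRT20 were thus near 0, against the label, and the cells are called by their label only. The part of these marker differences in the results was not tested.

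The catalytic subunit was compared first. KDM1A (ENSG00000004487, chr1:23019443-23083689, GRCh38, plus strand) had 105.5, 109.8 and 113.4 CPM in ENZ libraries 1 to 3 and 111.1, 109.7 and 113.4 CPM in Control libraries 1 to 3, where CPM values here and from here on are scaled with TMM factors. The groups overlapped, and the Control libraries lay in the upper part of the ENZ range. The log2 fold change of ENZ over Control was −0.02 ± 0.04 (SE), with a 95% interval from −0.11 to 0.06 (adjusted p = 0.681, edgeR's quasi-likelihood test). In bulk RNA, fewer cells of a type and less RNA per cell cannot be told apart. An unnamed long noncoding RNA gene overlaps KDM1A on the other strand; it was not analysed here, and the library kit keeps no strand. KDM1B (chr6:18155329-18223854), the flavin-dependent paralog that lacks the CoREST-binding tower domain, ran from 63.3 to 68.2 CPM in ENZ and from 66.8 to 74.5 CPM in Control. Its log2 fold change was −0.11 ± 0.05 and did not pass the threshold of 0.05 (adjusted p = 0.0942, edgeR), and the ranges overlapped. Its partner GLYR1 (NPAC) was at 0.04 ± 0.04 on the log2 scale (adjusted p = 0.433).

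**Figure D1:**
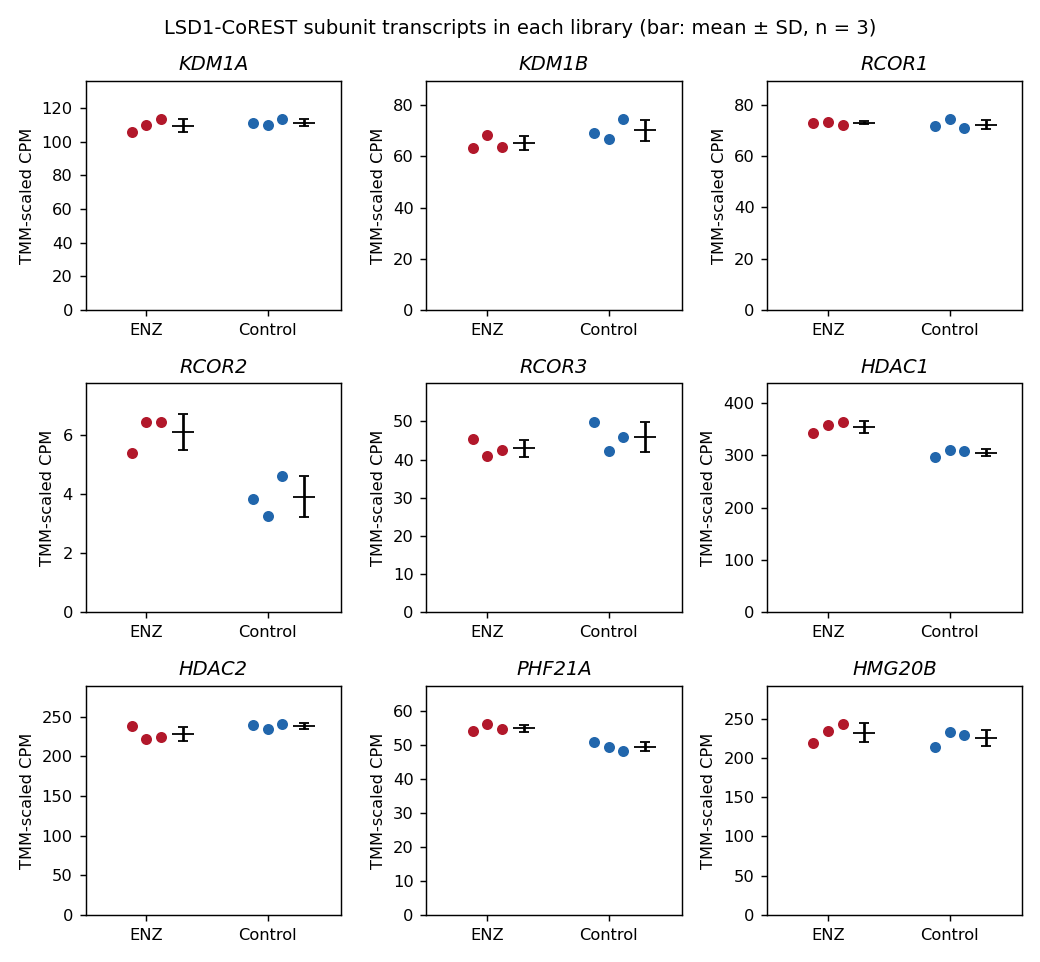
TMM-scaled CPM (vertical axes, from 0) of the 9 subunit genes in each library, with ENZ left of Control; points are libraries and bars are mean ± SD (n = 3). For HDAC1, RCOR2 and PHF21A every ENZ library lies above every Control library, and for the other 6 genes the groups overlap.

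How abundant the subunits were relative to each other depended on the length used. FPKM divides counts by gene length, and for each member the length behind the deposited FPKM equalled the union of all annotated exons in GENCODE release 44, which can include retained introns and rare exons. For KDM1A that union is 18325 bases, 5.94 times its canonical transcript of 3085 bases. On the deposited scale HDAC1 was highest with a mean of 83.1 FPKM over the 6 libraries, HMG20B followed with 59.2 FPKM and HDAC2 with 15.2 FPKM, and KDM1A was sixth with 6.02 FPKM. KDM1B (12.02 FPKM) and RCOR1 (11.7 FPKM) were neighbours whose ranges overlapped, as were PHF21A (2.08 FPKM) and RCOR2 (1.63 FPKM). With counts divided by the canonical transcript length instead, KDM1A moved to the third place with 35.8 FPKM, above HDAC2 with 23.9 FPKM. HDAC1 then had 155.5 FPKM and HMG20B 144.1 FPKM, with overlapping ranges, and RCOR2 stayed lowest with 1.71 FPKM. PHF21A was then at 7.00 FPKM. This choice was made after the data had been seen, and it cannot alter a fold change between groups.

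**Figure D2:**
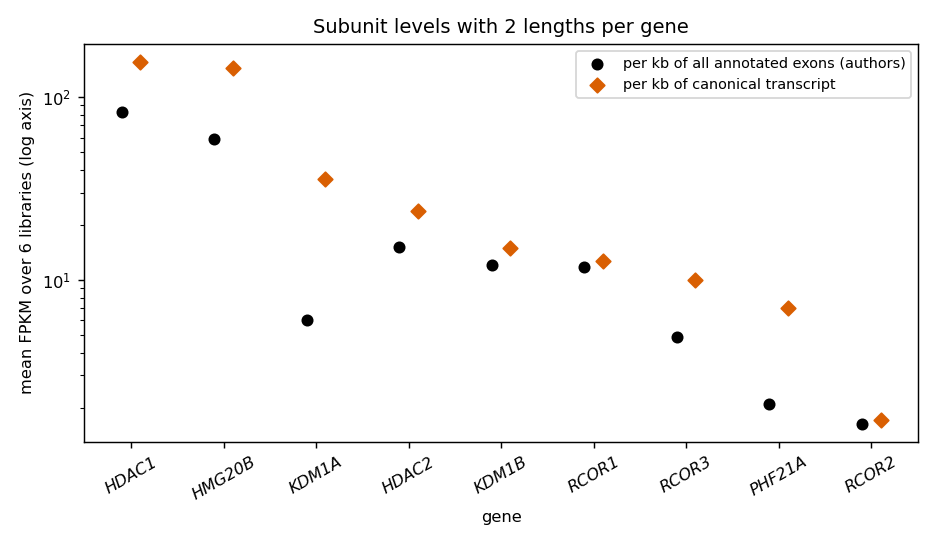
Mean FPKM over the 6 libraries (vertical log axis) of each subunit gene (horizontal axis, ordered by the canonical-transcript value), once per kilobase of all annotated exons as deposited (circles) and once per kilobase of the canonical transcript (diamonds). KDM1A shows the widest gap, 6.02 against 35.8 FPKM, and RCOR2 the narrowest, 1.63 against 1.71 FPKM.

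The scaffold genes differed from each other. RCOR2 (chr11:63911230-63917164), which is best known from embryonic and neural cells, rose in ENZ: it had 5.39, 6.45 and 6.45 CPM in ENZ libraries 1 to 3, against 3.85, 3.25 and 4.63 CPM in Control libraries 1 to 3. Every ENZ library was above every Control library, on 161 to 186 counts in ENZ and 89 to 125 counts in Control, the fewest of any member. The log2 fold change was 0.64 ± 0.13 (adjusted p = 5.99e-04, edgeR), a fold of 1.56. RCOR1 (chr14:102592649-102730561), the main scaffold of the complex, stayed between 72.3 and 73.4 CPM in ENZ and between 70.9 and 74.4 CPM in Control, so that the ENZ range fell within that of Control. Its log2 fold change was 0.01, with a 95% interval from −0.08 to 0.11 (adjusted p = 0.853). RCOR3 (chr1:211258377-211316385), whose product has opposed RCOR1 in mouse blood cells, ranged from 41.0 to 45.3 CPM in ENZ and from 42.2 to 49.9 CPM in Control (log2 fold change −0.10 ± 0.06, adjusted p = 0.209).

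Of the deacetylases, HDAC1 rose and HDAC2 did not pass the test. HDAC1 (ENSG00000116478, chr1:32292083-32333635, plus strand) had 342.2, 358.3 and 364.6 CPM in ENZ libraries 1 to 3, against 297.2, 310.1 and 308.2 CPM in Control libraries 1 to 3. The groups did not overlap, and the gap between them was wider than the range of either group. The log2 fold change was 0.22 ± 0.04, a fold of 1.16 (adjusted p = 4.87e-05, edgeR), and it stayed called in all 17 alternative settings, at 0.18 to 0.26. HDAC2 (ENSG00000196591, chr6:113933028-114011308, minus strand) had 237.9, 222.3 and 223.8 CPM in ENZ libraries 1 to 3 and 240.0, 234.2 and 240.6 CPM in Control libraries 1 to 3. ENZ library 1 lay inside the Control range and the other two ENZ libraries below it. The log2 fold change was −0.06 ± 0.04 (adjusted p = 0.186), and without ENZ replicate 1 it was −0.09 and called (adjusted p = 0.0247). No 75-base window of the longest HDAC1 or HDAC2 transcript occurred in a transcript of another gene, and the antisense gene HDAC2-AS2 had at most 12 counts in a library.

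The start regions of HDAC1 and HDAC2 and the most upstream one of PHF21A, another subunit that rose, are shown because the deacetylase genes had different fold changes. Sequences are from RefSeq (GRCh38.p14), which held a region for 8 of the 9 symbols, and run from 250 bases before to 50 bases after the start. Capitals mark exact matches, on either strand, to GGGCGG (a GC box, bound by Sp and KLF factors) or CCAAT (bound by NF-Y), and matches may overlap. The RefSeq start of HDAC2 lies within the longer gene span given above.
HDAC1, chr1:32291833-32292132, plus strand: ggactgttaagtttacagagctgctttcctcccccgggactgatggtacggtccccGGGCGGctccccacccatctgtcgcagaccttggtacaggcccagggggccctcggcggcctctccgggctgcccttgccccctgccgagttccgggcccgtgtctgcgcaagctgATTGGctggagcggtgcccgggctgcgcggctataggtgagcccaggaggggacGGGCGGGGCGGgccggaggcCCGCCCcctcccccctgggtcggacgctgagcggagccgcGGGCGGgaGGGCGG
HDAC2, chr6:113971099-113971398, minus strand: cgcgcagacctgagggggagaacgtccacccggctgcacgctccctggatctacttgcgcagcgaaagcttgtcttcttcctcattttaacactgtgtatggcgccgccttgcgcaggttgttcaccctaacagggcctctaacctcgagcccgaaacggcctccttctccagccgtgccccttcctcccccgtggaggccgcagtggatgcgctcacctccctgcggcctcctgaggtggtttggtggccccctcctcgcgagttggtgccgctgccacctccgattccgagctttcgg
PHF21A, chr11:46121405-46121704, minus strand: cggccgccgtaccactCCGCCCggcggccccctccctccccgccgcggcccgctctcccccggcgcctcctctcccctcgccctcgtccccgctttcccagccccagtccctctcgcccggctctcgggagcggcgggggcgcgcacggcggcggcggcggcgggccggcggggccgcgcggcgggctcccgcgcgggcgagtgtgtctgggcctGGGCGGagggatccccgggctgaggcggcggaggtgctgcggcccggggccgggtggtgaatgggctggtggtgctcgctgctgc
The HDAC1 region held 6 GC boxes and 1 CCAAT match, the PHF21A region held 2 GC boxes, and the HDAC2 region held neither motif. Among 27305 promoters of the same length, 44.6% held GGGCGG and 35.7% held CCAAT. KDM1A, which was not called, held 1 GC box, and RCOR1, also not called, held 6. Whether these motifs bear on the fold changes was not tested. No member's region held an E box (CACGTG), which stood in 7.43% of all promoters, a TATA box (TATAAA), which stood in 12%, or an E2F motif (TTTCGCGC or TTTGGCGC), which stood in 1.18%. No match says only that these letters are not in the window. CpG dinucleotides numbered 28 in the HDAC1 region, 24 in HDAC2 and 46 in the PHF21A region shown, against a median of 14 over all promoters. The PHF21A start regions not shown held 1 and 36 CpG dinucleotides, with 0 and 3 GC boxes in that order.

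Of the histone reader and the DNA-binding subunit, PHF21A (chr11:45929319-46121454) rose slightly. It had 54.0, 56.2 and 54.6 CPM in ENZ libraries 1 to 3, against 50.9, 49.5 and 48.4 CPM in Control libraries 1 to 3, with no overlap. The log2 fold change was 0.15 ± 0.05, a fold of 1.11 (adjusted p = 0.0199, edgeR). That call ended without Control replicate 3 (adjusted p = 0.0853), without ENZ replicate 2 (adjusted p = 0.0924), on library totals alone (adjusted p = 0.0687) and in the 3 fits on log2 FPKM values. HMG20B (chr19:3572777-3579088) had 219.5, 233.6 and 242.9 CPM in ENZ libraries 1 to 3 and 214.0, 233.2 and 228.8 CPM in Control libraries 1 to 3. The groups overlapped, and the log2 fold change was 0.04 ± 0.04 (adjusted p = 0.455). HMG20B overlaps the start of the transporter gene MFSD12 on the other strand, and 3.64% of the 75-base windows of its longest transcript also occur in MFSD12 transcripts, so their counts are uncertain there; MFSD12 was at 0.05 on the log2 scale (adjusted p = 0.385).

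In all, 3 of the 9 subunit genes were called higher in ENZ and 0 lower, where a call is an adjusted p under 0.05 in edgeR. Of the members lower in ENZ, 1 (KDM1B) had an unadjusted p under 0.05, and DESeq2 called 0 lower, while 2 were called lower on library totals alone. Across the 18581 genes tested 39.8% were called, 20.5% higher and 19.3% lower, so the members' count is near the background. The ENZ libraries lay wholly above the Control libraries for 3 of the 9 (25.3% of all genes) and wholly below for 0 (24% of all genes). The members' median log2 fold change was 0.01, beside −0.01 over all genes. No member reached an absolute log2 fold change of 1, the limit that the series design states.

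The GC content of the transcript moved with the fold change across all genes, and the members span most of that range. Genes of up to 40% GC had a median log2 fold change of −0.18, with 5.78% called higher and 40.1% lower; HDAC2 (37.8% GC) and RCOR3 (38.9%) are of this kind. Genes over 60% GC had a median of 0.14, with 36.2% called higher and 6.40% lower; HMG20B (65.7%) and RCOR2 (64.2%) are of this kind. KDM1A (45.7%), RCOR1 (45.4%) and HDAC1 (47.5%) lie between 45 and 50% GC, where the median was 0.00. When GC content and length were fitted as offsets for each library, HDAC2 was called higher at 0.13 (adjusted p = 0.00123) and HMG20B was called lower at −0.11 (adjusted p = 0.00579). HDAC1 (0.26), RCOR2 (0.49) and PHF21A (0.12) stayed called higher with these offsets, and KDM1A was at 0.01 (adjusted p = 0.851). These offsets take out any GC or length trend between the groups, whatever its source, which was not tested. In that fit the median over all genes was 0.03, and 4890 of 18538 genes were called higher and 3123 lower. The directions of HDAC2 and HMG20B thus depend on whether the offsets are used. Those of HDAC1, RCOR2 and PHF21A did not reverse in any of the 17 settings.

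**Figure D3:**
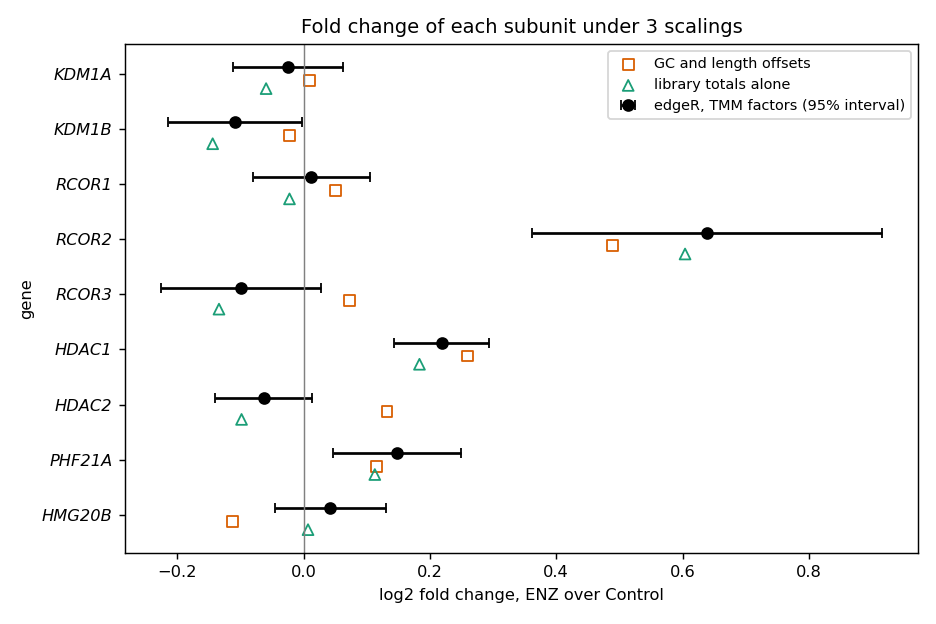
Log2 fold change of ENZ over Control (horizontal axis) of each subunit gene (vertical axis) with TMM factors and a 95% interval (black circles), with GC and length offsets (orange squares) and on library totals alone (green triangles). RCOR2, HDAC1 and PHF21A lie right of 0 under each, while HDAC2 lies at −0.06, 0.13 and −0.10 and HMG20B at 0.04, −0.11 and 0.01 in that order.

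The shares of paralogs in their summed FPKM were compared with exact two-sided permutation tests over libraries; HDAC1 and HDAC2 occupy the same place in the complex, as do the RCOR scaffolds, while KDM1B acts outside it. With 3 libraries against 3 the smallest p such a test can give is 0.1, so no share could pass 0.05, and adjusted values are over the 4 shares computed. HDAC1 made up 84.8%, 86.2% and 86.3% of HDAC1 plus HDAC2 in ENZ libraries 1 to 3, against 82.7%, 83.7% and 83.2% in Control libraries 1 to 3. Each ENZ library was above each Control library, a difference of 2.55 percentage points (exact permutation p = 0.1, adjusted p = 0.2) that was 4.74 points as a share of raw counts. Shares were not computed with GC and length offsets, under which the log2 fold changes of HDAC1 and HDAC2 were 0.26 and 0.13. KDM1A made up 34.1 ± 1.17% of KDM1A plus KDM1B in ENZ and 32.8 ± 0.861% in Control (SD, n = 3 each; exact permutation p = 0.2, adjusted p = 0.267), with overlapping groups. The difference of 1.29 percentage points was 0.648 without ENZ replicate 3 and 0.803 without Control replicate 3. Per canonical transcript length that share was 71.2 ± 1.06% in ENZ and 70.1 ± 0.825% in Control, so which of the 2 demethylase transcripts was more abundant depended on the length. RCOR1 made up 63.7 ± 0.448% of the 3 scaffold transcripts in ENZ and 64.8 ± 2.57% in Control (exact permutation p = 0.9, adjusted p = 0.9). That difference was −1.17 percentage points and, without Control replicate 2, 0.31. RCOR2 made up 10.8 ± 1.11% of the scaffold transcripts in ENZ and 7.12 ± 1.23% in Control, given without a test.

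**Figure D4:**
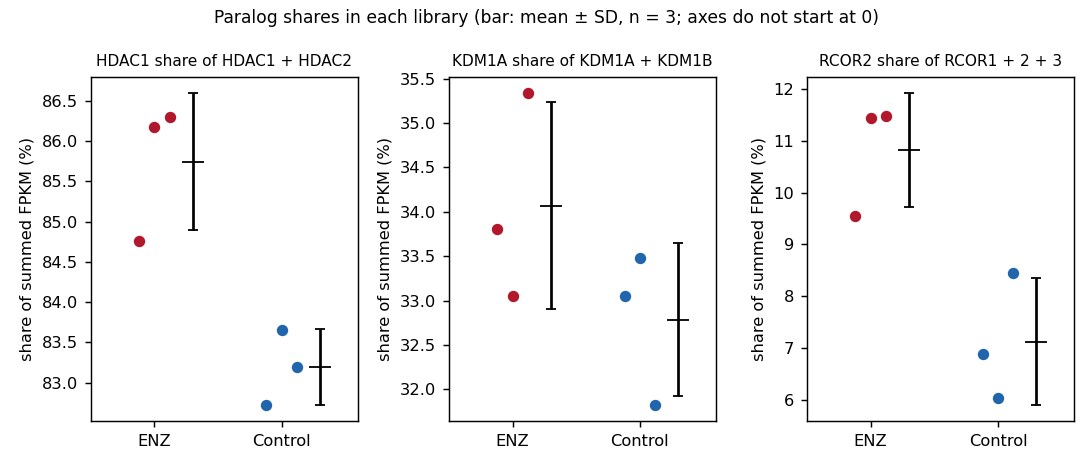
Share of summed FPKM (vertical axes in percent, not starting at 0) of HDAC1 among the 2 deacetylase transcripts, of KDM1A among the 2 demethylase transcripts and of RCOR2 among the 3 scaffold transcripts, per library, with ENZ left of Control and bars for mean ± SD (n = 3). The groups are apart for HDAC1 (84.8 to 86.3% in ENZ, 82.7 to 83.7% in Control) and RCOR2 (9.54 to 11.5% in ENZ, 6.03 to 8.44% in Control) and overlap for KDM1A.

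Other proteins that bind the complex or bring it to chromatin were read from a list of 15 genes, of which 11 were tested and 5 rose and 0 fell, where 20.5% of all tested genes were called higher and 19.3% lower. The median log2 fold change was 0.11, beside −0.01 over all genes. GFI1, a zinc-finger repressor that recruits LSD1 through its SNAG domain, had 12.7 ± 0.290 CPM in ENZ and 8.96 ± 0.393 CPM in Control (SD, n = 3 each; log2 fold change 0.50 ± 0.08, adjusted p = 6.75e-05). ZNF217, a zinc-finger protein found with CoREST, rose by 0.38 ± 0.05 on the log2 scale (68.5 ± 1.75 CPM in ENZ, 52.7 ± 0.780 CPM in Control). GSE1, a subunit of the same complex, rose by 0.18 ± 0.04. CTBP1, a corepressor, rose by 0.11 ± 0.04 (adjusted p = 0.0422), a call that ended without any single Control library, without ENZ replicate 2 or 3, in DESeq2 and with the GC and length offsets, where it was at −0.02. REST itself had 85.0 ± 7.33 CPM in ENZ and 87.7 ± 3.54 CPM in Control, a log2 difference of −0.04 (adjusted p = 0.551). With the offsets REST was at 0.11 and called (adjusted p = 0.0175, edgeR). In that fit 6 genes of the list rose and 0 fell, where 4890 of all 18538 genes were called higher and 3123 lower. SNAI2, GFI1B, INSM1 and ZEB1, recruiters typical of other lineages, stayed at or under 0.112 CPM and were not tested.

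HDAC1 and HDAC2 also serve other corepressor complexes, whose subunits moved in both directions. For each of these lists, the share over all tested genes was 20.5% called higher and 19.3% lower, and the median −0.01. With GC and length offsets 4890 of 18538 genes were called higher and 3123 lower, and the median was 0.03. Of 13 NuRD genes 7 rose and 3 fell (6 and 4 with GC and length offsets), with a median of 0.17. CHD5, a chromatin remodeller known from neurons, rose by 0.83 ± 0.07 (32.7 ± 1.79 CPM in ENZ, 18.4 ± 1.03 CPM in Control; adjusted p = 2.14e-09). MTA3, GATAD2B, GATAD2A, MTA1, CDK2AP1 and RBBP7 rose by 0.12 to 0.31, and MTA1 lost its call with the offsets. MBD2, a methyl-DNA binding protein, fell by 0.17, the histone chaperone gene RBBP4 by 0.15 and CHD3 by 0.10. RBBP4 lost its call with the offsets (adjusted p = 0.481), and CHD3 lost it in DESeq2 and without ENZ replicate 1 or 2 or any single Control library. Of 14 SIN3 genes 3 rose and 6 fell (4 and 4 with the offsets), with a median of −0.08. ARID4B, which binds chromatin in that complex, fell by 0.78 ± 0.09 (42.0 ± 6.25 CPM in ENZ, 72.3 ± 3.88 CPM in Control; adjusted p = 9.81e-05), and BRMS1L, ARID4A, ING1, SAP30 and SINHCAF fell by 0.11 to 0.37. SINHCAF lost its call in DESeq2 and without ENZ replicate 2 or any single Control library, and the calls of BRMS1L, ARID4A and SINHCAF ended with the offsets. SIN3B, SAP18 and SUDS3 rose by 0.16 to 0.27.

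Of 7 genes of the MiDAC complex and the MIER family, several of which carry the ELM2-SANT domains also found in CoREST, 4 rose and 0 fell (5 and 0 with the offsets), with a median of 0.20. Over all tested genes 20.5% were called higher and 19.3% lower. With the offsets 4890 of 18538 genes were called higher and 3123 lower. TRERF1 rose by 0.42 ± 0.06, MIDEAS by 0.24, MIER2 by 0.27 and DNTTIP1 by 0.20. DNTTIP1 lost its call without Control replicate 1 or 3 or ENZ replicate 2 or 3, and MIER2 without Control replicate 1 or ENZ replicate 3 and with the offsets. Of the other class I deacetylases, HDAC8 fell by 0.46 ± 0.09 (8.21 ± 0.289 CPM in ENZ, 11.3 ± 0.974 CPM in Control; adjusted p = 3.80e-04) and HDAC3, the NCoR deacetylase, was at −0.02 (adjusted p = 0.736). Of 4 enzymes reported to set LSD1 protein stability, 2 rose and 0 fell, where 20.5% of all tested genes were called higher and 19.3% lower. JADE2, a ubiquitin ligase for LSD1, rose by 0.44 ± 0.06 (55.5 ± 4.03 CPM in ENZ, 40.9 ± 0.493 CPM in Control; adjusted p = 1.86e-06), and the deubiquitinase gene OTUD7B rose by 0.23 ± 0.04. The deubiquitinase genes USP7 and USP28 had log2 fold changes of −0.05 and 0.03 and were not called.

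**Figure D5:**
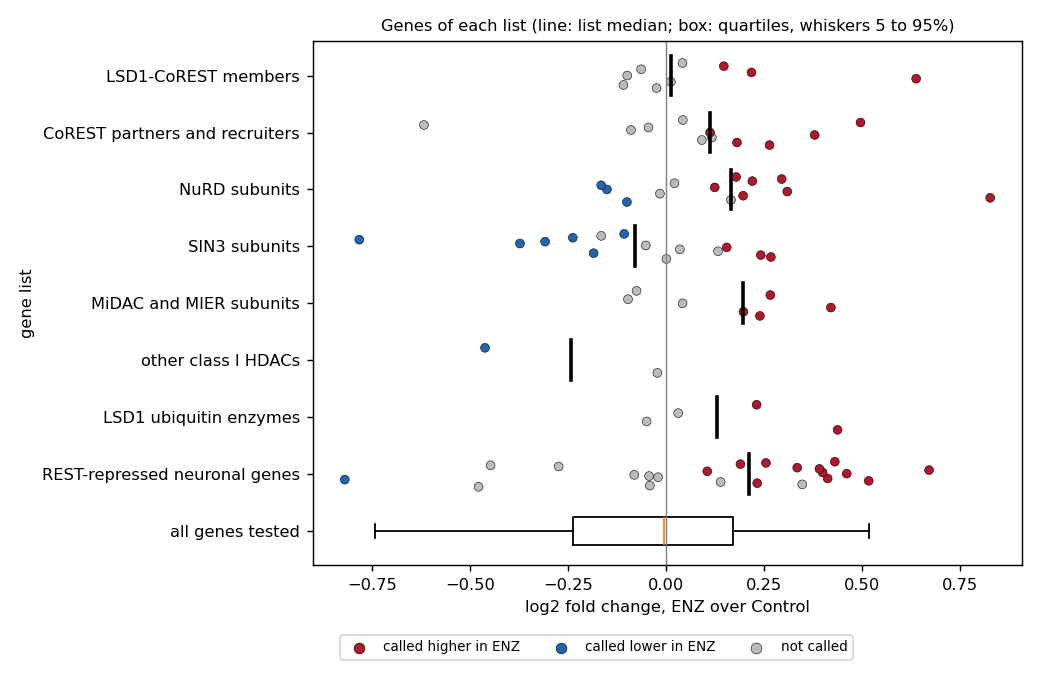
Log2 fold change of ENZ over Control (horizontal axis) of each tested gene (points) in the CoREST list and 7 further lists (rows), coloured by call, with the list median as a black line and all 18581 tested genes as a box (quartiles, whiskers at the 5th and 95th percentiles). The CoREST median lies at 0.01, the SIN3 median at −0.08 and the NuRD median at 0.17, with called genes on both sides of 0 for NuRD and SIN3.

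Neuronal genes known to be held down by REST and CoREST were measured from a list of 26, of which 22 were tested. Of these 12 rose and 1 fell, where 20.5% of all tested genes were called higher and 19.3% lower, and their median log2 fold change was 0.21, beside −0.01 over all genes. With GC and length offsets 11 rose and 3 fell, where 4890 of all 18538 genes in that fit were called higher and 3123 lower. RUNDC3A rose by 0.67 ± 0.08 (21.2 ± 1.78 CPM in ENZ, 13.3 ± 0.192 CPM in Control; adjusted p = 4.65e-07). SYN1, a synaptic vesicle protein gene, rose by 0.52 ± 0.16 and lost its call in DESeq2 and without Control replicate 3 or ENZ replicate 2, and CHRNB2, a nicotinic receptor subunit gene, rose by 0.46 ± 0.07. SYT4, a synaptotagmin gene of secretory vesicles, fell by 0.82 ± 0.08 (109 ± 13.6 CPM in ENZ, 193 ± 6.83 CPM in Control; adjusted p = 5.89e-05). Scaled to library totals alone, 16 of the 26 genes averaged over 10 CPM across the 6 libraries and 5 averaged under 1 CPM. The list summed to 1599 to 1648 CPM in Control, so as a whole it was not silent there. STMN2, SCN3A, NEFL and NEFM stayed at or under 0.187 CPM and were not tested. The list was chosen with earlier results of these data known and is described by its counts alone.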

How the data were processed

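Total RNA from 6 samples of cells labelled RKO was sequenced as poly(A)-selected, paired-end libraries of 150 bp reads with a kit that keeps no strand, per the labels' protocols and the series design. Upstream tools, per the submitters' processing notes, were DESeq2 1.20.0, HTSeq 0.6.1 and HISAT2 2.0.5, on GRCh38; for annotation, strand setting and filters the sources used here name nothing. The deposited table holds raw counts for each gene beside the authors' FPKM, which are those counts scaled to gene length and library total.

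Groups and replicate numbers came from the sample titles. Counts were tested with edgeR 4.0.16 (R 4.3.3; TMM factors, default filter, robust quasi-likelihood F test), and p-values were adjusted by Benjamini-Hochberg over all 18581 genes tested; the SE is the absolute log2 fold change over the square root of F. The code was tested on simulated data. Alternatives were DESeq2 1.42.0, limma 3.58.1 (voom, and log2 FPKM with pseudocounts 1 and 0.1 for means of at least 1 FPKM or unfiltered), other size factors and filters (none, or at least 10 counts in 3 libraries), a replicate block, GC and length offsets (splines with 4 degrees of freedom), and each library left out. Positions, lengths and GC content are from GENCODE 44 (GRCh38). Same-numbered libraries did not deviate together, so the main test has no block. Libraries of a group differed by more than sampling noise (chi-square per degree of freedom 1.93 to 6.15). The number of counts limits precision for RCOR2 most, and a count of 0 allows up to 3 counts, 0.0999 to 0.112 CPM, for counting error alone.

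The members and all gene lists were chosen with earlier results of these data known. Named genes are all 9 members, every called gene of lists of up to 15 genes, and the 4 called REST-repressed genes with the largest absolute log2 fold change; uncalled genes and genes of the marker lists are named where a count or a check is explained. A few listed genes that enter the counts, and 1 of the 4 shares, are not reported here.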

Additional observations from a re-analysis of the deposited data

How the results depend on the processing

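The 3814 genes called higher became 2424 on log2(FPKM + 1), 2358 on log2(FPKM + 0.1) and 2151 on unfiltered log2(FPKM + 1); the 3579 called lower stayed within 1.5 times in all settings. Leaving out 1 library gave 3041 to 4264 genes higher and 2782 to 3994 lower, 2 to 3 members higher and 0 to 1 lower. Members called higher were 1 on unfiltered log2(FPKM + 1), and members called lower were 2 on library totals alone (KDM1B at −0.14, HDAC2 at −0.10), 1 with GC and length offsets (HMG20B) and 1 without ENZ replicate 1 (HDAC2). RCOR2 lost its call on unfiltered log2(FPKM + 1) only (adjusted p = 0.0518). Among log2 fold changes that reversed, those with GC and length offsets were 0.0099 for KDM1A, 0.073 for RCOR3, 0.13 for HDAC2 and −0.11 for HMG20B. RCOR1 was at −0.022 on library totals alone, −0.020 on log2(FPKM + 1) with or without the filter and −0.022 on log2(FPKM + 0.1). Leaving out 1 library gave KDM1A −0.048 to 0.0051. The settings for the shares did not include GC and length offsets. Over the settings run, the HDAC1 share difference was 2.26 to 4.74 percentage points, highest on raw counts. The KDM1A share difference was 0.648 to 1.79, both ends with 1 library left out. The RCOR1 share difference was 0.60 percentage points on raw counts, 0.026 with canonical lengths, and −2.01 to 0.31 with 1 library left out. Beyond the values given for GC content, the causes were not tested.

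With the replicate number as a block 3832 genes were higher and 3634 lower, and every member kept its call or lack of one; same-numbered libraries correlated at −0.05 to 0.02 in their deviations, so the numbers gave no pairing.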
